A study of Mus musculus with 13 samples.

Results

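The genes described here are 10 genes of the transforming growth factor β (TGF-β) pathway, chosen by symbol: the ligands Tgfb1, Tgfb2 and Tgfb3, the latent TGF-β binding proteins Ltbp1 and Ltbp2, the activator Thbs1, the receptors Tgfbr1 and Tgfbr2, the inhibitory Smad7 and the TGF-β-induced matrix gene Tgfbi. All 10 were found among the 27141 genes of the count table and in the FPKM table, which shares 27140 of them, and all 10 passed the filter on low counts. The RNA came from damaged hepatocytes (dHeps), that is, liver cells prepared by collagenase perfusion from wild-type (WT) mice with chronic injury by carbon tetrachloride. Cultures were kept for 16 days in serum-free Hepatocyte Maintenance Medium (Lonza), and all groups shared this injury and this medium. They received the solvent DMSO, the 5 compounds together (5C), or 5C lacking one of them. 5C-G lacked GSK429286A, an inhibitor of the kinase ROCK, and 5C-C lacked CID755673, an inhibitor of protein kinase D. 5C-E lacked ETC-1002, an activator of AMPK, 5C-F lacked forskolin, an activator of adenylate cyclase, and 5C-S lacked the glycoside Salidroside. There were 2 libraries in each of 6 groups and 1 in 5C-S, 13 in 7 groups. By the study's methods, n counts biological replicates. Neither these nor the labels say whether the 2 libraries of a group came from different mice. The p-values therefore measure the spread between libraries of a group, taken over all groups together. The methods used mice of both sexes and give an age, that of young adults, for the reporter lines of the tracing experiments, while the mice here are labelled WT. The libraries of a group are called A and B in the order of the table's columns, and nothing ties a letter to a mouse or day across groups.

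TGF-β ligands are secreted bound to a latency peptide, and latent TGF-β binding proteins of the LTBP family tether this latent complex to matrix fibres. Thrombospondin-1 and αv integrins can release the active ligand, which binds the type II receptor. The type II receptor then recruits and phosphorylates the type I receptor, and this passes the signal to SMAD2 and SMAD3. SMAD7 is induced by the pathway and blocks it at the type I receptor. In injured liver TGF-β drives stellate cells to make matrix and can cause growth arrest, loss of epithelial identity and apoptosis of hepatocytes.

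Total counts per library ran from 30195867 to 45491932. In the table of FPKM, which are fragment counts scaled by gene length and by library size, albumin mRNA (Alb) lay between 2122 and 18255 in all libraries. The summed FPKM of 7 hepatocyte markers differed by group, at 10927 to 12159 in DMSO, 10937 to 10965 in 5C, 6859 to 8164 in 5C-G, 4657 to 5073 in 5C-C, 3154 to 3660 in 5C-E, 17226 to 21605 in 5C-F and 7131 in 5C-S. Alb itself was called lower than 5C in 5C-C (SE 0.19, adjusted p = 4.6e-05) and, by a log2 fold change of -2.03, in 5C-E (SE 0.20, adjusted p = 9.44e-06). RNA of other cells was present. The summed FPKM of 8 macrophage markers was 3895 and 3899 in the DMSO libraries, 378 and 436 in 5C, 3818 and 5261 in 5C-G, 716 and 1215 in 5C-C, 531 and 614 in 5C-E, 1167 and 1471 in 5C-F and 463 in 5C-S. Of these markers Lyz2 was the most abundant, and the Kupffer cell gene Clec4f stayed below 1 FPKM, listed at 0 in 3 libraries. The summed FPKM of 4 mesothelial markers (Msln, Upk3b, Wt1 and Upk1b) was between 462 and 945, and that of 10 stellate cell and fibroblast markers between 131 and 225. The 5 cholangiocyte markers summed to 110.5 and 113 FPKM in DMSO, 125 and 141 in 5C, 154 and 179 in 5C-G, 289 and 314 in 5C-C, 138 and 180 in 5C-E, 184 and 241 in 5C-F and 141 in 5C-S. Of 6 endothelial markers Pecam1, Cdh5 and Tie1 stayed below 0.3 FPKM, and their sum over the list lay between 4.59 and 25.5. In such mixed RNA, fewer cells of a type and less RNA per cell cannot be told apart.

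A gene was called where edgeR's quasi-likelihood test gave a Benjamini-Hochberg adjusted p under 0.05 over the 19884 genes tested and the log2 fold change was beyond 1. In 5C against DMSO 1 of the 10 genes was called lower (Tgfbi), against 2.89% of all genes, and 0 were called higher, against 1.66%. Leaving out GSK429286A (5C-G against 5C) gave 1 gene called higher (Tgfb1) against 7.47% of all genes and 1 called lower (Thbs1) against 5.64%. Leaving out CID755673 (5C-C against 5C) gave 4 called lower (Thbs1, Ltbp2, Tgfb2 and Tgfbr1) against 10.5% of all genes and 0 called higher against 9.65%. Leaving out ETC-1002 (5C-E against 5C) gave 2 called lower (Thbs1 and Ltbp2) against 1.31% and 0 called higher against 0.654%. Leaving out forskolin (5C-F against 5C) gave 1 called lower (Thbs1) against 2.15% and 0 called higher against 2.69%. At an unadjusted p under 0.05 with the same fold, and by DESeq2, the same calls were made among the 10 genes in each of these 5 comparisons. For the single 5C-S library there was no test, and the number of all genes past the fold moved strongly with the filter and tool. There, 1 gene (Thbs1) lay more than 1 log2 unit below 5C, as did 10.6% of all genes, and 0 lay as far above, as did 8.30%. The median log2 fold change of the 10 genes was -0.28 in 5C against DMSO, 0.01 without GSK429286A, -0.58 without CID755673, -0.03 without ETC-1002, -0.28 without forskolin and -0.18 without Salidroside, while the median over all genes tested lay between -0.01 and 0.01 in each. The comparisons with a compound left out share the 5C libraries and are therefore not independent of each other. In a test for any difference among the 6 replicated groups (edgeR), all 10 genes had an adjusted p under 0.05, from 5.9e-07 for Ltbp2 to 0.0402 for Smad7, against 45.6% of all genes. With 1 library left out, between 7 and 10 of them remained under 0.05. Those that missed it were Smad7, Ltbp1 and, without DMSO A, also Tgfb3 (adjusted p = 0.0587, with a range over all settings from 0.00016 to 0.0587). With all libraries, 9 of the 10 were under 0.05 with no filter, where Smad7 missed it (adjusted p = 0.0553), and by limma on log2(FPKM + 1), where Ltbp1 did (adjusted p = 0.095). Over all settings the adjusted p ran from 0.000133 to 0.131 for Smad7 and from 0.00282 to 0.17 for Ltbp1.

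**Figure D1:**
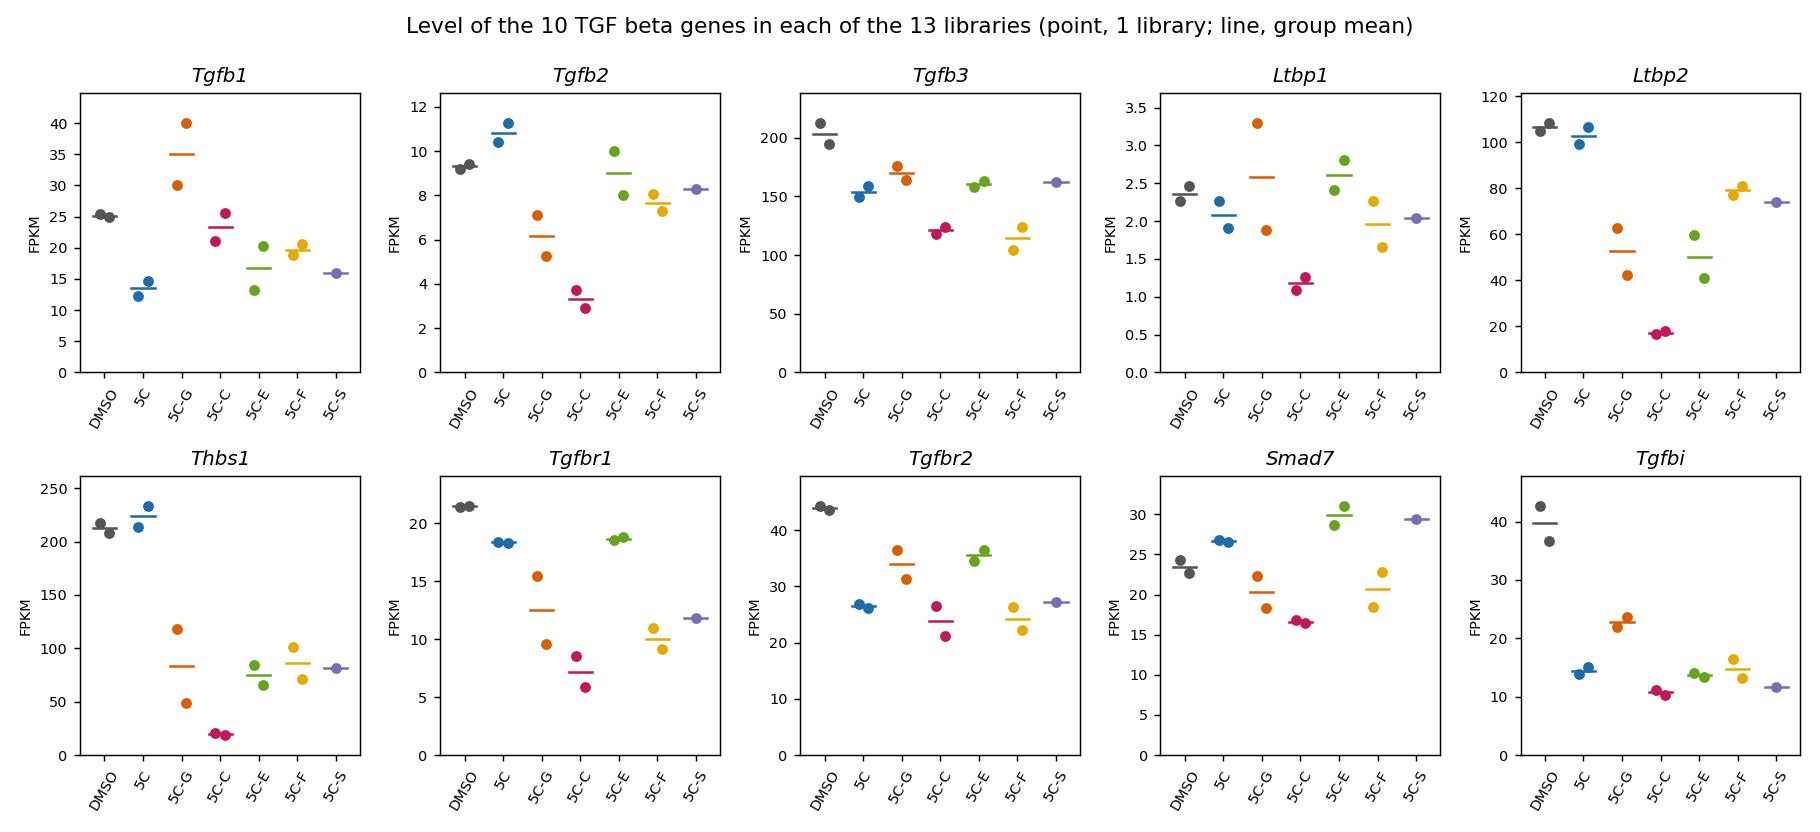
FPKM (vertical axes, linear, from 0) of the 10 genes in every library, by group; each point is 1 library and each line the group mean. Thbs1 and Ltbp2 were lowest in 5C-C, at 18.4 to 20.6 and 16.8 to 17.9 FPKM, whereas Tgfb1 was lowest in 5C and highest in 5C-G.

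The sequences upstream of 4 of these genes are shown as examples from 2 patterns of response. Ltbp2 and Tgfb2, like Tgfbr1, were called lower without CID755673. Tgfb1 and Tgfbi, like Tgfbr2, lay lower in 5C than in DMSO and higher in 5C-G than in 5C, but of these 6 differences only Tgfbi in 5C against DMSO and Tgfb1 in 5C-G were called. The other 4 lay inside the fold threshold, and the highest adjusted p over settings was 0.197 for Tgfb1 and 0.0831 for Tgfbr2 in 5C against DMSO, and 0.0714 for Tgfbi and 0.23 for Tgfbr2 in 5C-G. Each is the stretch of 250 bases before the gene's start, from RefSeq on GRCm38.p6, read 5′ to 3′ on the gene's strand. Capitals mark each match, on either strand, to the SMAD-binding box CAGAC or the GC box GGGCGG bound by Sp1. The windows are chr12:84876492-84876741 (minus strand) for Ltbp2, chr1:186705990-186706239 (minus strand) for Tgfb2, chr7:25686752-25687001 (plus strand) for Tgfb1 and chr13:56609336-56609585 (plus strand) for Tgfbi.
Ltbp2: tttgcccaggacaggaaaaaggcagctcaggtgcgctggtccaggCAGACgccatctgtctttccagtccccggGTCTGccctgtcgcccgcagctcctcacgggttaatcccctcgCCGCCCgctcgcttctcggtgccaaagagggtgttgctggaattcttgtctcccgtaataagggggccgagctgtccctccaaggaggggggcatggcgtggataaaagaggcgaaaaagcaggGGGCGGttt
Tgfb2: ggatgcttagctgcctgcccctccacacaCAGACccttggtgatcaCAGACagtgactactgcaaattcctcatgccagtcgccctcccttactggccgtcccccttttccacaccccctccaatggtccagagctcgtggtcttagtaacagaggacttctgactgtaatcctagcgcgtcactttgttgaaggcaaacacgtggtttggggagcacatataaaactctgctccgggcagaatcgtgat
Tgfb1: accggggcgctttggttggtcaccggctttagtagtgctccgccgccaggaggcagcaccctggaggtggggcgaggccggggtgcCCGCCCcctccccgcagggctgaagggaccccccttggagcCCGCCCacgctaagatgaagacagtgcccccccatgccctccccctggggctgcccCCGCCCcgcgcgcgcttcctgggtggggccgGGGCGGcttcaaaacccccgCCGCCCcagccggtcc
Tgfbi: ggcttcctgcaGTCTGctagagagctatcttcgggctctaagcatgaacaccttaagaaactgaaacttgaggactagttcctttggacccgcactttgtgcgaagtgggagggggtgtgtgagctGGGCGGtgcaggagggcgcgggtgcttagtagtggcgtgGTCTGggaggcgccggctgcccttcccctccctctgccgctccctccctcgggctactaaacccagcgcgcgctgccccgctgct
The Ltbp2, Tgfb2 and Tgfbi windows each held 2 SMAD boxes and the Tgfb1 window 0, whereas the Tgfb1 window held 5 GC boxes, Ltbp2 2, Tgfbi 1 and Tgfb2 0. CAGAC occurred in 42.2% and GGGCGG in 32.7% of the 32851 windows of this length in the same table, so either match is common. The Tgfb1 window was 75.2% G and C and the Tgfb2 window 53.6%. None of these 4 windows held the TEAD site GGAATG (12.6% of windows), the AP-1 site TGANTCA (6.75%), the cyclic AMP response element TGACGTCA (1.55%) or a CArG box (1.47%). Of the genes with the same responses whose windows are not printed, Tgfbr2 had 1 SMAD box and 0 GC boxes, and Tgfbr1, which has 2 annotated starts, had 0 SMAD boxes and 2 GC boxes at one and 1 and 0 at the other. Ltbp1, also with 2 annotated starts, had 1 SMAD box and 1 cyclic AMP response element at one and 2 SMAD boxes at the other, with 0 GC boxes at either. RefSeq windows are used for 7 of the 10 genes, and Thbs1, Tgfb3 and Smad7 are named only.

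Among the ligands Tgfb3 was the most abundant per length in every library. It made up between 78.4% and 87.2% of the summed FPKM of the 3 ligands, Tgfb1 between 7.17% and 19.1%, and Tgfb2 between 1.91% and 6.14%. TGFB1 is the ligand most associated with fibrosis, TGFB2 and TGFB3 are close paralogues that signal through the same receptors, and betaglycan (Tgfbr3) is needed for efficient TGFB2 binding. Tgfb1 (ENSMUSG00000002603, GRCm39 chr7:25386390-25404506, plus strand) stood at 25.4 and 24.9 FPKM in DMSO, 12.3 and 14.6 in 5C, 30.1 and 39.995 in 5C-G, 21.1 and 25.6 in 5C-C, 13.2 and 20.3 in 5C-E, 18.8 and 20.6 in 5C-F and 16.0 in 5C-S. The 5C libraries lay below those of DMSO, 5C-G, 5C-C and 5C-F with no overlap, and only 5C-E overlapped with them. Tgfb1 rose in 5C-G against 5C by 1.52 log2 units (SE 0.23, adjusted p = 0.000183). In 5C against DMSO it was lower by a log2 fold change of -0.97 (SE 0.23, adjusted p = 0.0125), just inside the fold threshold, and in 5C-C it was higher by 0.96 (SE 0.23, adjusted p = 0.00339), also inside it. Without 5C B or without 5C-C A the difference in 5C-C was 1.13, which would be called (adjusted p = 0.0138 and 0.00297), while over all settings its adjusted p ran from 1.13e-05 to 0.0903. In 5C-E (0.24, adjusted p = 0.696) and 5C-F (0.64, adjusted p = 0.0777) the difference did not pass the test.

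Tgfb1 went with the macrophage markers only in part. In 5C-C it was at 21.1 and 25.6 FPKM, close to DMSO at 25.4 and 24.9. The marker sums there were 716 and 1215, against 3895 and 3899 in DMSO. In 5C-F, with sums of 1167 and 1471, Tgfb1 was at 18.8 and 20.6. The summed macrophage markers and Tgfb1 were lowest in the same library (5C A, 378 and 12.3 FPKM) and highest in the same library (5C-G B, 5261 and 39.995). 7 of the 8 markers were called lower in 5C against DMSO, 7 higher in 5C-G, 4 higher in 5C-C, 0 in 5C-E and 7 higher in 5C-F. Mesothelial markers also differed, with sums of 825 in both DMSO libraries, 546 and 568 in 5C, and 893 and 945 in 5C-G. The part of either in the Tgfb1 values was not tested.

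**Figure D2:**
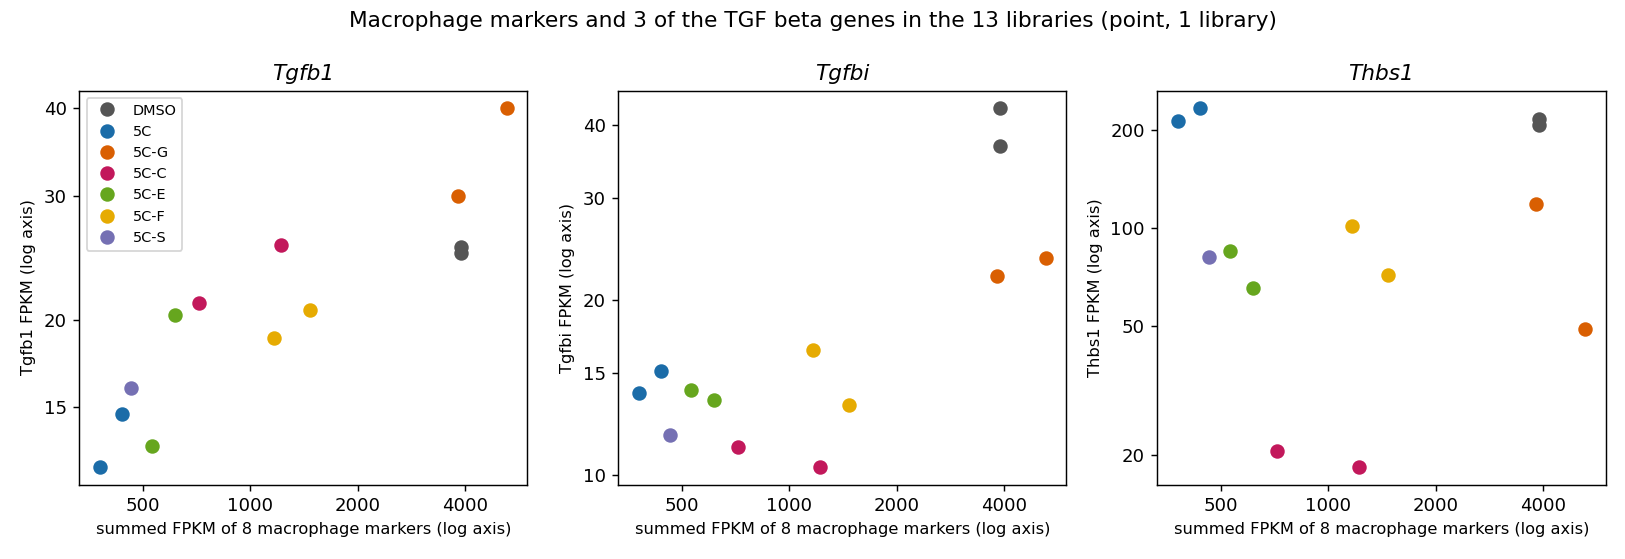
Summed FPKM of 8 macrophage markers (horizontal, log axis) against the FPKM of Tgfb1, Tgfbi and Thbs1 (vertical, log axes); each point is 1 of the 13 libraries, coloured by group. Tgfb1 runs from 12.3 FPKM at the lowest marker sum to 39.995 at the highest, whereas Thbs1 lies at 214 and 234 at the 2 lowest sums (5C) and at 208 and 217 at the high sums of DMSO.

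Tgfb2 (ENSMUSG00000039239, chr1:186354985-186438294, minus strand) was measured at 9.18 and 9.43 FPKM in DMSO, 10.4 and 11.3 in 5C, 7.10 and 5.25 in 5C-G, 3.73 and 2.91 in 5C-C, 9.99 and 8.02 in 5C-E, 8.05 and 7.30 in 5C-F and 8.31 in 5C-S. Both 5C-C libraries lay below every other library. Tgfb2 fell in 5C-C by 1.55 log2 units, or 2.92-fold (SE 0.19, adjusted p = 4.06e-05). In 5C-G it was lower by a log2 fold change of -0.69 (SE 0.19, adjusted p = 0.0132), inside the fold threshold, and in 5C against DMSO it differed by 0.14 (adjusted p = 0.774). Tgfb3 (ENSMUSG00000021253, chr12:86102756-86126301, minus strand) had 212 and 194 FPKM in DMSO, 149.5 and 159 in 5C, 176 and 164 in 5C-G, 118 and 124 in 5C-C, 158 and 163 in 5C-E, 104 and 124 in 5C-F and 162 in 5C-S. DMSO was highest without overlap, and 5C-C and 5C-F, which overlapped each other, were lowest. None of its differences in the comparisons tested was called. The largest of these, -0.47 in 5C against DMSO (SE 0.15), had an adjusted p of 0.0833. DMSO and 5C-F, its highest and lowest group means, were not tested against each other. The library kit keeps no strand. Exons of Tgfb3 overlap those of Ttll5 and 2 unnamed genes on the opposite strand, and exons of Tgfb2, Tgfbr1, Tgfbr2, Ltbp2 and Thbs1 overlap other annotated transcripts, so the reads in those stretches cannot be told apart.

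The latent binding proteins differed widely in level. Ltbp2 (ENSMUSG00000002020, chr12:84829986-84923306, minus strand) codes for a matrix protein of the family that binds fibrillin but not latent TGF-β itself. It was at 105 and 108 FPKM in DMSO, 99.2 and 107 in 5C, 62.8 and 42.3 in 5C-G, 16.8 and 17.9 in 5C-C, 59.7 and 41.0 in 5C-E, 77.2 and 81.0 in 5C-F and 74.2 in 5C-S. DMSO and 5C overlapped at the top, every mixture with 1 compound left out lay below both, and 5C-C lay lowest without overlap. Ltbp2 fell in 5C-C by 2.40 log2 units, or 5.29-fold (SE 0.20, adjusted p = 1.13e-06), and in 5C-E by 1.10 (SE 0.19, adjusted p = 0.00275). The difference in 5C-G, -0.85 (SE 0.19, adjusted p = 0.00349), lay inside the fold threshold, and it passed that threshold with 5C-G A left out (-1.06, adjusted p = 0.00104) and with counts offset by transcript GC content and length (the GC and length offset), at -1.07 (adjusted p = 0.0014). Over all settings its adjusted p ran from 2.38e-05 to 0.0427. In 5C-F it was -0.28 (adjusted p = 0.365). The call in 5C-E rested on single libraries. Without 5C-E B the value was -0.86 (adjusted p = 0.122) and without 5C B -1.001 (adjusted p = 0.0608), and over all settings the adjusted p ran from 1.77e-06 to 0.122. Ltbp1 (ENSMUSG00000001870, chr17:75312519-75699507, plus strand), which does bind the latent complex and targets it to the matrix, was far lower, between 1.09 and 3.29 FPKM in all libraries. Its 5C-C libraries, at 1.09 and 1.27, were the lowest, and the 2 libraries of 5C-G, at 3.29 and 1.88, spanned most of the remaining range. Against 5C it differed by -0.65 in 5C-C (SE 0.24, adjusted p = 0.0483), inside the fold threshold, and in no other comparison was the adjusted p under 0.05. Over the settings tried, its value in 5C-C ran from -0.815 with total counts to -0.214 with the GC and length offset. The ratio of Ltbp2 to Ltbp1 FPKM was 43.9 and 56.0 in 5C and 15.3 and 14.1 in 5C-C.

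Thbs1 (ENSMUSG00000040152, chr2:117941974-117957616, plus strand) codes for thrombospondin-1, a secreted matrix protein of platelets and injured tissue that can activate latent TGF-β, and its level changed most of the 10. It was at 217 and 208 FPKM in DMSO, 214 and 234 in 5C, 118 and 49.1 in 5C-G, 20.6 and 18.4 in 5C-C, 84.8 and 65.4 in 5C-E, 101 and 71.7 in 5C-F and 81.5 in 5C-S. DMSO and 5C overlapped, and each of the 9 libraries from mixtures with a compound left out lay below all 4 of them. The 5C-C libraries lay below the rest, and the other 4 such groups overlapped with their neighbours. The highest and lowest of the 13 libraries differed 12.7-fold.

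Against 5C, Thbs1 fell without CID755673 by 3.36 log2 units, or 10.25-fold (SE 0.29, adjusted p = 1.63e-06). It fell without ETC-1002 by 1.65, or 3.13-fold (SE 0.27, adjusted p = 0.00185). Without GSK429286A it fell by 1.32, or 2.50-fold (SE 0.27, adjusted p = 0.00196), and without forskolin by 1.27, or 2.41-fold (SE 0.27, adjusted p = 0.00818). The single library without Salidroside differed from 5C by -1.47, with no test. Against DMSO, 5C itself differed by 0.00 (SE 0.26, adjusted p = 1). The call in 5C-C held in every setting tried, with log2 fold changes from -3.52 to -3.13, and the other 3 calls did not. Without 5C-G B the value in 5C-G was -0.88 (adjusted p = 0.0187) and without 5C-G A it was -1.96. Without 5C-E B the value in 5C-E was -1.47 (adjusted p = 0.0779), and limma on log2(FPKM + 1) gave -1.57 (adjusted p = 0.0504). In 5C-F it was -1.17 without 5C B (adjusted p = 0.0868) and -1.004 without 5C-F B (adjusted p = 0.102). Over all settings the adjusted p ran from 2.29e-11 to 0.0235 in 5C-G, from 1.26e-14 to 0.0779 in 5C-E and from 5.21e-09 to 0.102 in 5C-F.

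Markers of other cells also differed in 5C-C, where Thbs1, Ltbp2, Tgfb2 and Tgfbr1 were called lower. Over all genes, 9.65% were called higher and 10.5% lower in this comparison. The cholangiocyte sum was 289 and 314 FPKM there against 125 and 141 in 5C, and 1 of its 5 genes, Krt19 (keratin 19), was called higher, by 1.68. Of 10 stellate cell and fibroblast markers 4 were called lower, Reln (reelin) by a log2 fold change of -4.60, and 2 higher, Hand2 by 1.81 and Des (desmin) by 1.25. Of 7 hepatocyte markers 3 were called lower and 0 higher. Of 8 macrophage markers 4 were called higher and 0 lower, of 6 endothelial markers 1 higher and 0 lower, and of 4 mesothelial markers 0 in either direction. The part of these markers in the values of the 4 genes was not tested.

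**Figure D3:**
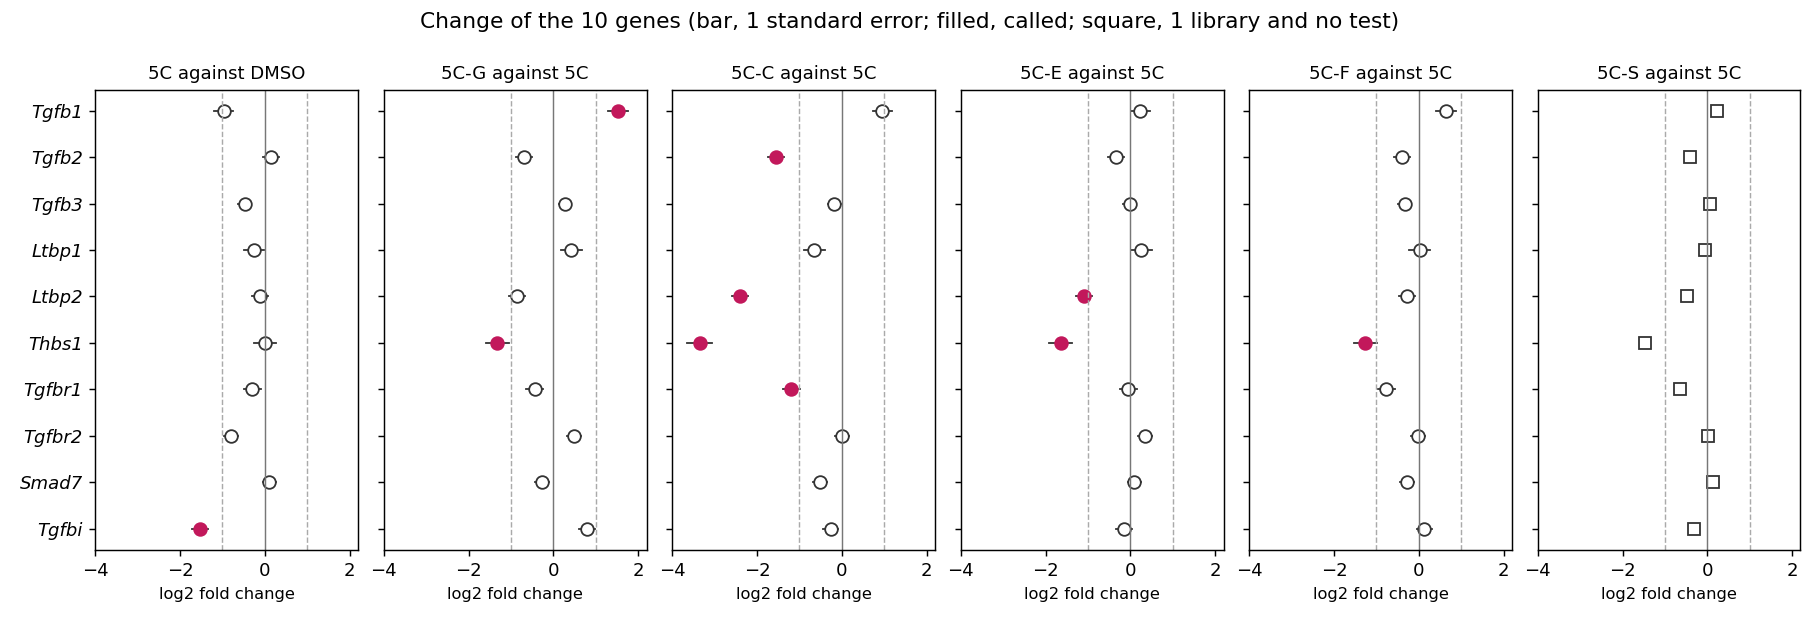
Log2 fold change of the 10 genes (horizontal, linear) in each comparison; bars are 1 standard error, filled points are called, dashed lines mark the fold threshold, and squares for 5C-S have no test. Thbs1 lies left of the threshold in all 5 mixtures with a compound left out and at 0.00 in 5C against DMSO.

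The 2 signalling receptors responded differently. Tgfbr2 (ENSMUSG00000032440, chr9:115913361-116004800, minus strand), the ligand-binding type II receptor, was at 44.4 and 43.6 FPKM in DMSO, 27.0 and 26.2 in 5C, 36.6 and 31.3 in 5C-G, 26.5 and 21.2 in 5C-C, 34.5 and 36.5 in 5C-E, 26.4 and 22.2 in 5C-F and 27.3 in 5C-S. DMSO was highest without overlap, 5C-E and 5C-G overlapped below it, and 5C, 5C-F and 5C-C overlapped at the bottom. Tgfbr2 was lower in 5C than in DMSO by a log2 fold change of -0.80 (SE 0.17, adjusted p = 0.00508), and higher in 5C-G than in 5C by 0.48 (SE 0.17, adjusted p = 0.0406). Neither reached the fold threshold. Tgfbr1 (ENSMUSG00000007613, chr4:47353134-47414931, plus strand), the type I receptor kinase that phosphorylates SMAD2 and SMAD3, was at 21.4 and 21.5 FPKM in DMSO, 18.4 and 18.3 in 5C, 15.5 and 9.55 in 5C-G, 8.51 and 5.88 in 5C-C, 18.6 and 18.8 in 5C-E, 10.9 and 9.18 in 5C-F and 11.8 in 5C-S. 5C-C was lowest without overlap, and 5C-E lay just above 5C. Tgfbr1 fell in 5C-C by 1.19 log2 units (SE 0.21, adjusted p = 0.000337). In 5C-F it was lower by a log2 fold change of -0.77 (SE 0.20, adjusted p = 0.0253), inside the fold threshold, and with the GC and length offset the value there was -0.40. With the GC and length offset the value in 5C-C was -0.34 (adjusted p = 0.0852) and without 5C-C B it was -0.97 (adjusted p = 0.00842), so the call rested on both, and over all settings the adjusted p ran from 9.2e-08 to 0.0852. The mean GC content of Tgfbr1 transcripts, 42.5%, was the lowest of the 10 genes. The ratio of Tgfbr2 to Tgfbr1 FPKM was 1.46 and 1.43 in 5C, 2.07 and 2.02 in DMSO and 3.12 and 3.61 in 5C-C.

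Smad7 (ENSMUSG00000025880, chr18:75500374-75529006, plus strand), the inhibitory SMAD, varied least between single libraries, the highest being 1.89 times the lowest. It was at 24.3 and 22.7 FPKM in DMSO, 26.8 and 26.5 in 5C, 22.3 and 18.3 in 5C-G, 16.8 and 16.4 in 5C-C, 28.7 and 31.1 in 5C-E, 18.5 and 22.8 in 5C-F and 29.4 in 5C-S. 5C-C was lowest without overlap. It was not called in any comparison. In 5C-C the log2 fold change was -0.52 (SE 0.16, adjusted p = 0.0174). With the GC and length offset it was -1.06 there (adjusted p = 3.85e-05, with a range over settings up to 0.113), which would be called.

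Tgfbi (ENSMUSG00000035493, chr13:56757336-56787375, plus strand) codes for a secreted adhesion protein named for its induction by TGF-β, and it is also made by macrophages. It was at 42.7 and 36.7 FPKM in DMSO, 13.8 and 15.1 in 5C, 21.95 and 23.6 in 5C-G, 11.2 and 10.3 in 5C-C, 14.001 and 13.5 in 5C-E, 16.4 and 13.2 in 5C-F and 11.7 in 5C-S. DMSO was highest and 5C-G next, both without overlap, and 5C-C was lowest. Tgfbi fell in 5C against DMSO by 1.53 log2 units, or 2.89-fold (SE 0.19, adjusted p = 2.67e-05), with values from -1.64 to -1.39 over the settings tried. In 5C-G it was higher than in 5C by 0.79 (SE 0.18, adjusted p = 0.00465), inside the fold threshold. In 5C-C, 5C-E and 5C-F it differed from 5C by -0.27, -0.15 and 0.13, none past the test (adjusted p = 0.283, 0.782 and 0.697). DMSO and 5C-G were also the groups with the highest macrophage marker sums, from 3818 to 5261 FPKM, and Lyz2 alone was at 2509 and 2572 FPKM in DMSO, 244 and 306 in 5C, and 2107 and 2539 in 5C-G. The summed mesothelial markers were also highest in these groups, at 825 FPKM in both DMSO libraries and 893 and 945 in 5C-G against 546 and 568 in 5C. The part of either in the Tgfbi values was not tested.

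Across the 13 libraries the levels of Thbs1 and Ltbp2 were the most alike of the 10 genes, with a Pearson correlation of log2 counts scaled to library size (log2 CPM) of 0.95. Tgfb2 correlated with Thbs1 at 0.92 and with Ltbp2 at 0.92, and Tgfbr1 with Thbs1 at 0.84. Tgfb1 ran against Smad7 (-0.59) and Tgfb2 (-0.51), and with Tgfbi at 0.54. These values describe 13 libraries that share groups and scaling. Of 12932 other genes with a mean of at least 1 log2 CPM, those most like Thbs1 were Rab14 (0.98), Gucy1a1 (0.97) and Tmcc3 (0.97), and those most like Ltbp2 were Cap2 (0.97), St3gal5 (0.97) and Sp100 (0.97). For Tgfb1 they were Capg (0.98), Zdhhc7 (0.98) and Ninj1 (0.98), and for Tgfbi Cybb (0.97), Cd33 (0.96) and Gm8995 (0.96). Cybb codes for the phagocyte NADPH oxidase subunit and Cd33 for a receptor of myeloid cells. For Tgfb2 they were Vps54 (0.98), Tex2 (0.98) and Lpp (0.97), for Tgfb3 Ezr (0.96), Naip5 (0.92) and Pik3cd (0.92), for Tgfbr1 Atp2b1, Mbnl2 and Ankfy1 (each 0.98), for Tgfbr2 Gda (0.98), Tnfrsf1b (0.95) and Rnf150 (0.95), for Smad7 Tnrc18 (0.96), Mtss1l (0.94) and Zmynd8 (0.94), and for Ltbp1 Tmcc2 (0.95), Fst (0.91) and Dync1li2 (0.91). Fst codes for follistatin, which binds activins.

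The rest of the pathway was read from 50 further genes in 4 lists, all of which were tested. Of 14 genes for latency, storage and activation, 2 were called higher and 1 lower in 5C against DMSO, 1 and 1 in 5C-G, 0 and 3 in 5C-C, 0 and 0 in 5C-E, and 1 and 1 in 5C-F, with a median log2 fold change between -0.43 (5C-G) and 0.06 (5C-E). Over all genes tested, the shares called higher and lower were 1.66% and 2.89% in 5C against DMSO, 7.47% and 5.64% in 5C-G, 9.65% and 10.5% in 5C-C, 0.654% and 1.31% in 5C-E, and 2.69% and 2.15% in 5C-F. The counts for latency, storage and activation moved with the settings. Without 5C-G A they were 2 higher and 5 lower in 5C-G, and total counts or no filter gave 2 lower there. Total counts gave 6 lower in 5C-C, and the GC and length offset 1 lower in 5C-E. In 5C against DMSO, 1 was higher without DMSO B or with at least 10 counts in every library, and 0 by limma. In 5C-F, 2 were lower without 5C-F A, and 0 with any of the other 3 libraries left out, by limma or with the offset. Nrros, which tethers latent TGFB1 on macrophages, fell in 5C against DMSO by 3.25 log2 units (SE 0.25, adjusted p = 1.75e-07), from 13.3 and 13.5 FPKM to 1.48 and 1.49. It rose in 5C-G by 3.34 (SE 0.25, adjusted p = 1.89e-07), to 12.5 and 14.7 FPKM, and in 5C-F by 1.71 (SE 0.24, adjusted p = 0.000523). The 8 macrophage markers had median log2 fold changes of -3.16, 3.47 and 1.93 in these 3 comparisons, with 7 of 8 called in each, and their part in the Nrros values was not tested. Itgb6, the β6 integrin subunit of epithelium that activates latent TGF-β with αv, moved the other way, higher by 3.16 in 5C against DMSO (SE 0.62, adjusted p = 0.00336) and lower by a log2 fold change of -3.06 in 5C-G (SE 0.62, adjusted p = 0.00188), at 0.815 and 1.34 FPKM in 5C and 0.223 or less in DMSO and 5C-G. Of the 5 cholangiocyte markers, Epcam (3.24) and Cldn7 (2.99) were called higher in 5C against DMSO, while Sox9 (0.72), Krt19 (0.03) and Krt7 (-0.33) did not pass the test. In 5C-G, Epcam (-2.20), Cldn7 (-1.89) and Sox9 (-1.46) were called lower, whereas Krt7 (0.82, adjusted p = 0.00575) and Krt19 (0.73, adjusted p = 0.00884) were higher, inside the fold threshold, and the sum of all 5 was higher than in 5C. Their part in the Itgb6 values was not tested. Fbn2 (fibrillin-2) was called higher in 5C against DMSO (2.10, adjusted p = 0.00215) and lower in 5C-F (-1.29, adjusted p = 0.0381), at 0.426 and 0.467 FPKM in 5C. The Itgb6 call in 5C against DMSO was lost without DMSO B (adjusted p = 0.06, the highest among its settings) and by limma (0.89). limma also ended those of Itgb6 in 5C-G (-0.88) and Fbn2 in 5C against DMSO (0.40). In 5C both genes lay near or below the 1 that this setting adds to the FPKM before the log. This keeps limma's values for them small, so its losses of their calls, and its counts of 0 above, do not test these calls. The call of Fbn2 was lost in 5C-F whichever of the 4 libraries was left out (adjusted p from 0.121 to 0.172), by limma (-0.30) and with the GC and length offset (-0.98). In 5C-C, Itgav, the αv subunit, fell by 1.85 log2 units (SE 0.24, adjusted p = 4.58e-05), Ltbp4 by 1.37 (SE 0.16, adjusted p = 2.09e-05) and Fbn1 (fibrillin-1) by 1.11 (SE 0.17, adjusted p = 0.000127). With the GC and length offset Fbn1 was at -0.85, inside the fold threshold. Ltbp4 was at 36.1 and 38.0 FPKM in 5C and 12.8 and 12.8 in 5C-C, and it was lower than 5C in 5C-G (-0.54, adjusted p = 0.0161) and lower in 5C than in DMSO (-0.55, adjusted p = 0.0408), both inside the fold threshold.

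Of 6 receptors and co-receptors, 1 was called higher (Eng, endoglin) and 1 lower (Tgfbr3) in 5C-G, against 7.47% and 5.64% of all genes. In 5C-C 1 was called lower (Cd109), against 10.5%, and 0 higher, against 9.65%. In the other 3 comparisons, whose shares are given above, 0 were called. Tgfbr3, or betaglycan, was at 20.8 and 22.2 FPKM in 5C and 7.24 and 11.8 in 5C-G, a fall of 1.06 log2 units (SE 0.19, adjusted p = 0.000671). It was also lower in 5C-C (-0.75, adjusted p = 0.00423) and 5C-F (-0.86, adjusted p = 0.00891), inside the fold threshold. Eng was higher by 1.01 in 5C-G (adjusted p = 0.00204) and Cd109, which codes for an inhibitory co-receptor, lower by a log2 fold change of -1.04 in 5C-C (adjusted p = 0.0158). The Eng call was lost in most settings, among them DESeq2 (0.99), a replicate block for the number in the column names (0.98) and without 5C-G B (0.57). Tgfbr3 stood at -0.82 without 5C-G B and at -0.86 with the GC and length offset, inside the fold threshold. The Cd109 call was lost without 5C A, 5C B or 5C-C A (adjusted p from 0.0647 to 0.0754) by limma (-0.46) and with the GC offset (-0.32). Without 5C-G A 2 genes of this list were called lower in 5C-G.

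Of 13 SMADs and intracellular regulators, 4 were called lower in 5C-C, against 10.5% of all genes, and 1 lower in 5C-G, against 5.64%, and 0 were called in either direction in the other comparisons. The median log2 fold change of the list was -0.59 in 5C-C and -0.47 in 5C-G. Skil, a co-repressor of SMAD targets, fell in 5C-C by 1.49 log2 units (SE 0.27, adjusted p = 0.0005), from 10.8 and 11.2 FPKM to 2.79 and 4.22, and in 5C-G by 1.10 (adjusted p = 0.00631). Smurf2, a ubiquitin ligase that acts on the receptors with SMAD7, fell in 5C-C by 1.05 (adjusted p = 0.000987), Smad2 by 1.05 (adjusted p = 0.000905) and Smad5, a SMAD of the BMP branch, by 1.04 (adjusted p = 0.000344; this last gene was named after its values were seen). With the GC and length offset 2 genes of the list were called lower in 5C-C, neither of them among these 4, and without 5C-C B 2 were. Under that offset the log2 fold change was -0.26 for Smad2, -0.50 for Smurf2, -0.45 for Smad5 and -0.49 for Skil in 5C-C, and -0.49 for Skil in 5C-G. Without 5C-C B it was -0.98 for Smad2 and -0.77 for Smurf2, and without 5C A -0.99 for Smad2, and without 5C-G B Skil in 5C-G was at -0.68 (adjusted p = 0.0842). Smad3 was at 14.4 and 16.1 FPKM in 5C and 5.90 and 9.06 in 5C-C, a log2 fold change of -0.87 (SE 0.22, adjusted p = 0.00455) that lay inside the fold threshold. It was -1.16 without 5C-C A, -1.03 with total counts only and -1.03 with the GC offset, past the threshold, but without 5C-C B it was -0.62 (adjusted p = 0.0742, the highest of its settings) and without 5C B -0.75 (adjusted p = 0.0579).

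Of 17 genes known to respond to TGF-β, 1 was called higher and 0 lower in 5C against DMSO, against 1.66% and 2.89% of all genes. In 5C-G the counts were 4 and 2 (7.47% and 5.64% of all genes) and in 5C-C 1 and 3 (9.65% and 10.5%). In 5C-E they were 1 and 3 (0.654% and 1.31%) and in 5C-F 0 and 2 (2.69% and 2.15%). These counts also moved with the settings. In 5C-C, 3 were higher without 5C-C A, 2 were higher by DESeq2, with either other filter, without 5C B, without 5C-C B or with the GC and length offset, and 5 were lower with total counts. In 5C-E, 3 were higher without 5C-E A, 2 with total counts or by limma, and 0 without 5C A, 5C B or 5C-E B. In 5C-F, 4 were lower with total counts, 1 by DESeq2, with no filter or without 5C B, and 0 without 5C A, and at the unadjusted p 1 was higher. In 5C-G, 2 were higher without 5C-G B or with the offset, and in 5C against DMSO 0 were higher without DMSO B or by limma. These genes did not move as a block, and most answer to other signals as well. Acta2, smooth muscle actin of activated stellate cells, was at 255 and 299.9 FPKM in DMSO, 215 and 233 in 5C, 746 and 991 in 5C-G, 33.2 and 44.1 in 5C-C, 43.3 and 50.7 in 5C-E, 105 and 110 in 5C-F and 89.0 in 5C-S. It rose in 5C-G by 2.11 log2 units (SE 0.21, adjusted p = 3.61e-06) and fell in 5C-C by 2.36 (SE 0.21, adjusted p = 2.63e-06) and in 5C-E by 2.32 (SE 0.21, adjusted p = 6.08e-06). Of 10 stellate cell and fibroblast markers 3 were called higher in 5C-G, Des by 2.64, Thy1 by 2.09 and Hand2 by 1.49, and 3 lower, Pdgfra at -2.02, Lrat at -1.89 and Reln at -1.69, and their part in the Acta2 values was not tested. Tagln (transgelin) moved alongside at lower levels, by 2.09 in 5C-G (adjusted p = 0.00502), -2.28 in 5C-C (adjusted p = 0.00307) and -2.56 in 5C-E (adjusted p = 0.0124). Timp1, the inhibitor of matrix metalloproteinases, rose in 5C-C by 3.28 (SE 0.24, adjusted p = 3.52e-07), from 257 FPKM in both 5C libraries to 1836 and 2621, in 5C-G by 1.39 (adjusted p = 0.000327) and in 5C-E by 1.08 (adjusted p = 0.0117), the last named after its values were seen. The call in 5C-E was lost without 5C A (adjusted p = 0.151), without 5C B (adjusted p = 0.111) and without 5C-E B (adjusted p = 0.19, the highest of its settings). Ccn2, connective tissue growth factor, fell in 5C-C by 1.70 (SE 0.17, adjusted p = 7.02e-06) and in 5C-E by 1.38 (SE 0.17, adjusted p = 0.000131). Col1a2 (-1.55, adjusted p = 0.0135) and Fn1 (-1.002, adjusted p = 0.000529) were called lower in 5C-F and Eln (1.32, adjusted p = 0.00135) higher in 5C against DMSO. The Col1a2 call was lost whichever library was left out (adjusted p from 0.0585 to 0.111) and that of Fn1 without 5C A or 5C-F A (-0.91 and -0.92), with the GC and length offset (-0.81), by DESeq2 (-0.98) and with no filter. The Eln call was lost without DMSO B (adjusted p = 0.05, the highest among its settings) and by limma (0.85). The Tagln call was lost without 5C A (1.95) or 5C-G B (1.57) in 5C-G and without 5C B (-2.37) or 5C-E B (-1.97) in 5C-E, and that of Timp1 in 5C-G without 5C-G B (0.98) and with the GC and length offset (0.73).

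**Figure D4:**
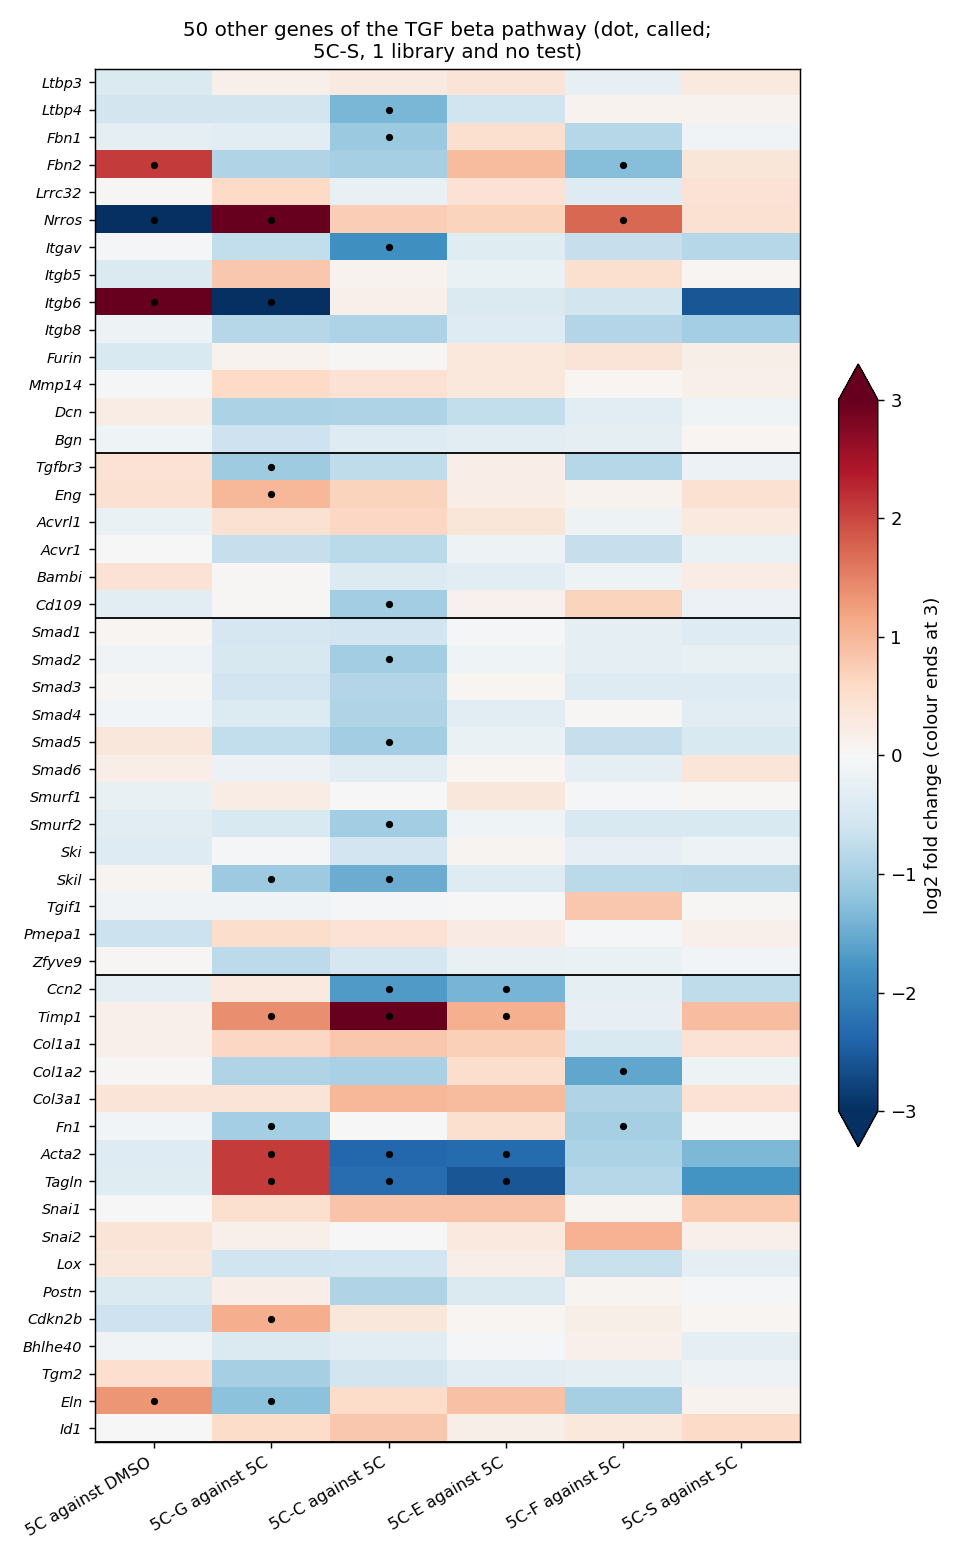
Log2 fold change (colour, ending at 3 in either direction) of 50 other genes of the pathway, in rows by list, in each comparison; a black dot marks a called gene and 5C-S has no test. Dots in the list of SMADs and intracellular regulators, the third block, fall in 5C-C (4) and 5C-G (1).

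The 10 calls among the member genes differed in how far they depended on single libraries and settings. 5 of them held in every alternative: Tgfbi in 5C against DMSO, Tgfb1 in 5C-G, and Thbs1, Ltbp2 and Tgfb2 in 5C-C. The other 5, Thbs1 in 5C-G, 5C-E and 5C-F, Ltbp2 in 5C-E and Tgfbr1 in 5C-C, were lost in at least 1.

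**Figure D5:**
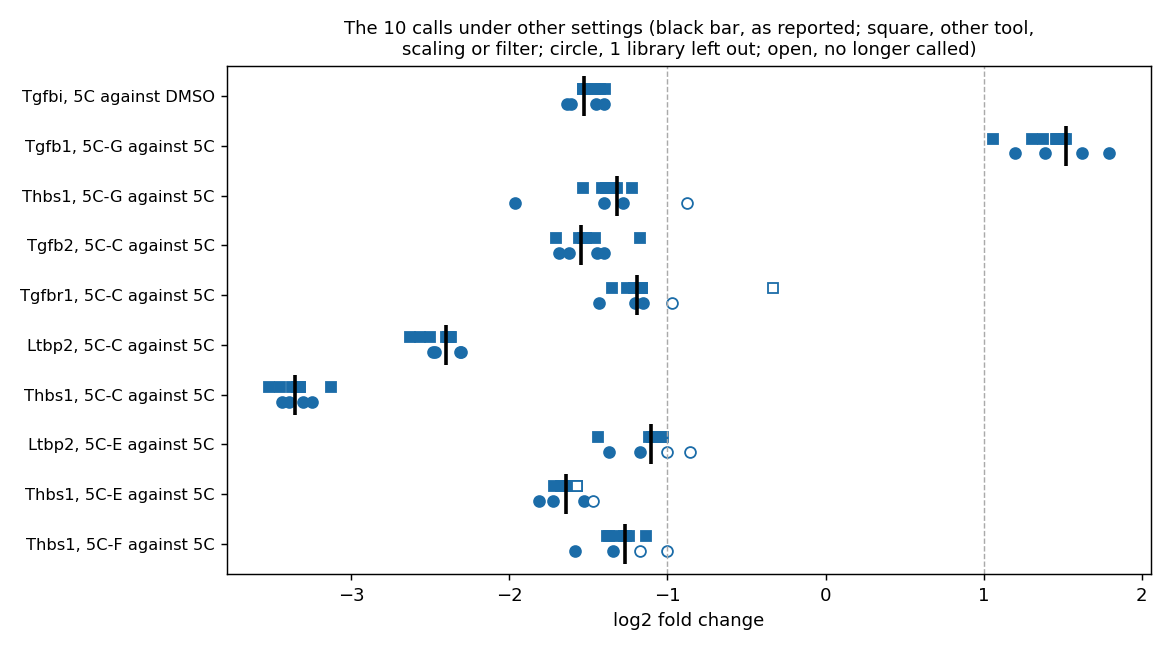
Log2 fold change (horizontal, linear) of the 10 calls among the member genes under each alternative; black bars are the values as reported, squares are other tools, scalings or filters, circles leave out 1 library, and open symbols are no longer called. Open symbols appear in 5 of the 10 rows, and in none of them did the sign change.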

How the data were processed

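RNA was sequenced from 13 libraries of cultured hepatocytes (NEBNext Ultra RNA, a kit that does not mark strand, NovaSeq paired-end). The authors deposited raw counts per gene and FPKM for GRCm39, and their processing notes name featureCounts, Subread and DESeq2. The aligner, the annotation release and the strand setting are not given in the sources used here. FPKM, as deposited by the authors, served for levels only. Total counts per library were 30195867 to 45491932, and 0 columns of values were left unused.

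Counts were tested in edgeR 4.0.16 (R 4.3.3; TMM scaling, quasi-likelihood, all 13 libraries in 1 fit by group, 6 residual degrees of freedom) in place of the study's DESeq. Genes had to pass filterByExpr with a minimum count of 10, which left 19884. Called genes had a Benjamini-Hochberg adjusted p under 0.05 over all of them and a log2 fold change beyond 1. 5C-S, with 1 library, had no test. No pair of libraries of 1 group agreed within sampling noise. The chi-square per degree of freedom between the 2 libraries ran from 8.32 in DMSO to 93.8 in 5C-G, while the test shared its estimate of spread over groups. Alternatives were DESeq2 1.42.0, scaling by total counts, other filters, limma 3.58.1 on log2(FPKM + 1), only the 2 groups compared, each library left out, unadjusted p and a GC and length offset. Some fits were chosen after seeing the data: the leave-one-out and GC offset fits of the test over all groups, its filter of at least 10 counts, and a block for the number in the column names. The readings of the pathway lists and of named pathway genes under the alternatives were not planned. The script was tested on simulated data. The member genes and the pathway and marker lists were chosen with earlier results of these data known. Beside the members, the text names up to 3 called genes of each pathway list per comparison, those with the largest log2 fold change, plus Ccn2, Smad3, Tgfbr3 and Ltbp4 in any comparison, and the 3 genes most like each member. Timp1 in 5C-E and Smad5 in 5C-C fall outside this rule and were named after their values were seen. Gene coordinates are those of the GENCODE vM39 annotation of GRCm39. 1 gene of the list of genes known to respond to TGF-β is not reported here, for a reason unrelated to its values, and the counts and median of that list are over the other 17.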

Additional observations from a re-analysis of the deposited data

How the results depend on the processing

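Among the member genes under all alternatives, 604 values kept their direction and their side of the threshold, 9 were no longer called, 5 became called and 32 changed sign, none of them a called value. The cause of these changes was not tested. limma on log2(FPKM + 1) left 1 member called in 5C-E. With 1 library left out, the number of members called ran from 0 to 2 in 5C-E (1 without 5C B, 0 without 5C-E B), from 0 to 1 in 5C-F (0 without 5C B or 5C-F B), from 1 to 3 in 5C-G (1 without 5C-G B) and from 3 to 5 in 5C-C, and it stayed at 1 in 5C against DMSO. The values that turned sign were small. Those given below for Ccn2, Smad3 and Ltbp4 are of named pathway genes and not among the 32. Of the values of named pathway genes, 6 changed sign. Thbs1 in 5C against DMSO was at 0.072 with total counts, 0.009 with no filter, 0.027 with at least 10 counts, 0.070 by limma, 0.059 with the GC and length offset and 0.011 with the replicate block. With 1 library left out it ran from -0.083 to 0.078. Tgfb3 in 5C-E was at 0.062 with total counts and by limma, 0.017 with no filter and 0.005 with at least 10 counts, and from -0.069 to 0.083 with 1 library left out. Total counts also gave -0.155 for Tgfbr2 in 5C-C, 0.026 for Tgfbr1 in 5C-E and -0.086 for Ltbp1 in 5C-F, and limma gave -0.158, 0.024 and -0.063. The GC and length offset gave 0.103 for Ltbp2 in 5C against DMSO, 0.095 for Tgfbr1 and -0.080 for Ccn2 in 5C-G, -0.158 for Tgfb1, 0.191 for Tgfbr1, -0.227 for Smad7 and -0.152 for Smad3 in 5C-E, and 0.157 for Tgfbr2 and -0.026 for Ltbp4 in 5C-F. With 1 library left out, Smad3 in 5C-E ran from -0.029 to 0.194, Smad3 in 5C against DMSO ran from -0.060 to 0.129, Ltbp1 in 5C-F ran from -0.274 to 0.267, Tgfbr2 in 5C-C ran from -0.116 to 0.132, Tgfb1 in 5C-E ran from -0.105 to 0.546, Tgfbi in 5C-F ran from -0.079 to 0.319 and Tgfbr2 in 5C-F ran from -0.201 to 0.129.

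Over all genes, 905 were called in 5C against DMSO, 2607 without GSK429286A, 4011 without CID755673, 390 without ETC-1002 and 962 without forskolin. In the same order limma called 569, 1376, 2318, 217 and 341. Fits of only the 2 groups compared called 1371 in 5C against DMSO and 642 in 5C-E, and the unadjusted p 1532 there, 877 in 5C-E and 1672 in 5C-F. The GC and length offset called 1976 in 5C-C. With 1 library left out, 1395 to 3945 were called in 5C-G, 138 to 393 in 5C-E and 294 to 953 in 5C-F. Scaling by total counts moved the median of all genes by -0.13 in 5C-G and -0.16 in 5C-C, and the share of calls that were higher from 57.0% to 43.5% in 5C-G, from 47.8% to 33.8% in 5C-C and from 55.5% to 38.6% in 5C-F. With 2 libraries a group, every difference rests on few values, and how well those inside the fold threshold could be resolved was not tested. Ltbp1, with 354 to 1133 counts, was the least deeply counted member. The table's columns number the libraries 1 and 2 in each replicated group, and nothing ties a number to a mouse or day. Between groups, the deviations of same-numbered libraries correlated at -0.096 to 0.362 over genes, above 0.1 in 7 of 15 pairs of groups, so the numbers were not taken as pairs. With the number as a replicate block, a fit chosen after seeing the data, the count of members called was the same in every comparison (1, 2, 4, 2 and 1, and 10 over all groups), and all genes called were 988, 2714, 4079, 466 and 1098. Of the pathway genes named, the Eng call in 5C-G was lost under it (0.98).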
